A study of Mus musculus with 11 samples.

Results

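The genes described here are 10 genes of urea synthesis, glucose synthesis and amino acid breakdown that hepatocytes switch on as they mature: Cps1, Otc, Ass1, Asl, Arg1, Pck1, G6pc, Fbp1, Tat and Ppargc1a. They were chosen by symbol, through the Ensembl identifiers of the deposited tables, and all 10 were found among the 52636 genes listed. RNA of whole fetal liver at E15.5 was sequenced from 11 untreated embryos of a C57BL/6N background: 3 WT, 2 Tnfr1-/-, 3 Casp8-/- Mlkl-/- and 3 Casp8-/- Tnfr1-/-. Every knockout allele was germline, so the genes were absent from all cells of the embryo and not from hepatocytes alone. The Casp8-/- Mlkl-/- livers carry intact Tnfr1, and the Casp8-/- Tnfr1-/- livers carry intact Mlkl. Caspase-8 is the protease that restrains necroptosis, MLKL is the protein that carries out necroptosis, and TNFR1 binds TNF. The comparison of the double mutants asks what differs in livers that lack caspase-8 with or without the means for necroptosis. These livers also differ in Tnfr1, so the part of Mlkl and that of Tnfr1 cannot be told apart. Nothing in the labels says that the livers of a group came from separate litters, so the p-values measure the spread between these embryos.

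The urea cycle turns ammonia, released when amino acids are broken down, into urea. Cps1 and Otc act in mitochondria and make citrulline, Ass1 and Asl turn citrulline into arginine in the cytosol, and Arg1 splits arginine into urea and ornithine. Gluconeogenesis makes glucose from lactate and amino acids through Pck1 (phosphoenolpyruvate carboxykinase), Fbp1 (fructose-1,6-bisphosphatase) and G6pc (the catalytic subunit of glucose-6-phosphatase). Tat begins the breakdown of tyrosine, and Ppargc1a encodes the coactivator PGC-1alpha, which takes part in the fasting response of liver. Glucocorticoids, glucagon and cyclic AMP raise several of these genes around birth, when the newborn loses the placental supply of glucose. Fetal liver is also the main site of blood formation at this age, so a large part of its RNA comes from blood cells. In bulk samples fewer hepatocytes and less RNA per hepatocyte cannot be told apart.

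Promoter sequence is shown for 4 members, because the results below turn on Pck1, Fbp1, Tat and Otc, whose levels moved differently from each other. The reference table of RefSeq promoters (GRCm38.p6) holds 7 of the 10 members and lacks Arg1, Asl and Cps1. Each line gives the bases upstream of the RefSeq start, cut where GENCODE places the gene, 5′ to 3′ on the strand of the gene, and capitals mark a match to CGTCA (the core letters of the cyclic AMP response element) or to CCAAT (the CCAAT box), on either strand.
Pck1, chr2:173152823-173153047, + strand: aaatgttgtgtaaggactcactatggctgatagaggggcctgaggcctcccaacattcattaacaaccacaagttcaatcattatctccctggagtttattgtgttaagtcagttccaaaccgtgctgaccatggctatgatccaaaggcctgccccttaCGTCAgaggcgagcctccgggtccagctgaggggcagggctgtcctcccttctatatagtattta
Fbp1, chr13:62888283-62888532, - strand: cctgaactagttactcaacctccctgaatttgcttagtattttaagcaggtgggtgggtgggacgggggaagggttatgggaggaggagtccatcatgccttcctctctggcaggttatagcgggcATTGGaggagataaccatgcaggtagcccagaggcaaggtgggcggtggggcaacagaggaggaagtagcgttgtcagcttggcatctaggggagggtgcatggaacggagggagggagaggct
Tat, chr8:109990186-109990435, + strand: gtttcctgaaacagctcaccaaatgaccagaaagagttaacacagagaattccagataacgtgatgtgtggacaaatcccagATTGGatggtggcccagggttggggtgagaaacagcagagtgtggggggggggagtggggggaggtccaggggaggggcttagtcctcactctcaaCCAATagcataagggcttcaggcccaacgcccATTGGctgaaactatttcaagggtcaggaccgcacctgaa
Otc, chrX:10252055-10252304, + strand: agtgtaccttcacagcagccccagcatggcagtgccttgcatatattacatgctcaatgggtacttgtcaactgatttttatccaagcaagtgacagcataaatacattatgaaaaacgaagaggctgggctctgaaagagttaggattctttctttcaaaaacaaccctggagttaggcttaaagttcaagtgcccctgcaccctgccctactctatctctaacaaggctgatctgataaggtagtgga
In the Pck1 window CGTCA lies at -90 to -86 from the RefSeq start, and the same letters lie at -49 to -45 in Ppargc1a. CCAAT was found 3 times in Tat, once in Fbp1 and not in the Otc window. Of 32851 promoters of 250 bases, 17.8% hold CGTCA and 33.8% hold CCAAT on either strand, so both matches are common. TATAAA (12.4% of promoters) was found among the 7 members in G6pc alone, and TTGCNNAA (9.56%) and TGTTCT (16.1%), the letters searched for C/EBP and for the glucocorticoid receptor, in none of them. The motifs share no letters that let them overlap at the sites found, and a match describes letters, not binding.

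Library totals lay between 23129212 and 35819339 counts (median 25733946), and levels are given in CPM, the counts relative to library sizes scaled by the trimmed mean of M-values. Casp8-/- Mlkl-/- replicate 1 and Casp8-/- Tnfr1-/- replicate 3 stood apart from the other 9 livers, with scaling factors of 0.812 and 0.758 against 1.01 to 1.09. The summed level of 12 hepatocyte markers (among them Alb, Afp, Apoa1 and Ttr) was 56209 to 84724 CPM in the other 9 livers, 245586 CPM in Casp8-/- Mlkl-/- replicate 1 and 115254 CPM in Casp8-/- Tnfr1-/- replicate 3. In Casp8-/- Tnfr1-/- replicate 3 the summed striated muscle markers were at 1289 CPM (at most 32.6 in the other 9) and the stromal markers at 5646 CPM (1105 to 1509). The summed neutrophil markers there were at 12837 CPM (1033 to 5634). Of these 8 markers, 3 (S100a8, S100a9 and Ngp) were above the 10 other livers, as were 32.3% of all genes. Another 3 (Mpo, Elane and Prtn3) were below them, as were 38.8% of all genes. Xist in that liver was at 3409 CPM (at most 0.570 in all 10 others). In Casp8-/- Mlkl-/- replicate 1 the summed macrophage markers were at 984 CPM against 332 to 471 in the other 9. Of these 8 markers 6 were highest in that liver, as were 16.5% of all genes. The comparisons of the members are therefore given with all 11 livers and without these 2, which were set aside because their libraries stood apart. They were picked from these same data. Leaving them out raised the share of all genes called in Casp8-/- Tnfr1-/- against WT from 5.80% to 31.3%. The p-values without the 2 livers may therefore be too small. Casp8 was at 7.82 to 21.9 CPM in the 6 livers labelled Casp8-/- and at 27.7 to 33.9 CPM in the 5 others, and Mlkl at 0.730 to 1.22 CPM in the livers labelled Mlkl-/- and at 3.68 to 24.6 CPM elsewhere. Counts over the whole Tnfrsf1a gene, 49.8 and 50.5 CPM in the livers labelled Tnfr1-/- and 47.1 to 53.4 CPM in WT, do not check the Tnfr1 allele. In Casp8-/- Tnfr1-/- livers they were at 76.9, 76.0 and 425 CPM, above WT.

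Per kilobase of exon, the urea cycle genes stood above the gluconeogenic genes in WT liver. The order of mean level in WT, in RPKM (the CPM divided by the exon length in kilobases, n = 3), began with Arg1 (32.1 ± 9.41 SD), Otc (19.6 ± 1.02), Ass1 (18.5 ± 2.29) and Asl (17.5 ± 0.797). It went on with Cps1 (9.76 ± 3.52), Fbp1 (7.13 ± 3.32), Ppargc1a (1.62 ± 0.145), Tat (0.493 ± 0.0961) and Pck1 (0.473 ± 0.0421), and ended with G6pc (0.0220 ± 0.00929). The ranges of neighbours overlapped between Otc and Ass1, Ass1 and Asl, Cps1 and Fbp1, and Tat and Pck1, so these pairs are not ordered beyond their spread. The place of Ass1 is also uncertain because it shares sequence with another gene entry, Gm5424. That entry was at 106, 105 and 81.0 CPM in WT, where Ass1 was at 32.8, 34.5 and 27.1 CPM. G6pc rested on 1, 1 and 2 counts in the WT livers, close to nothing. In Casp8-/- Mlkl-/- replicate 1 the order was different. Fbp1 was the highest of the 10 there at 473 RPKM, above Arg1 at 258 RPKM.

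**Figure D1:**
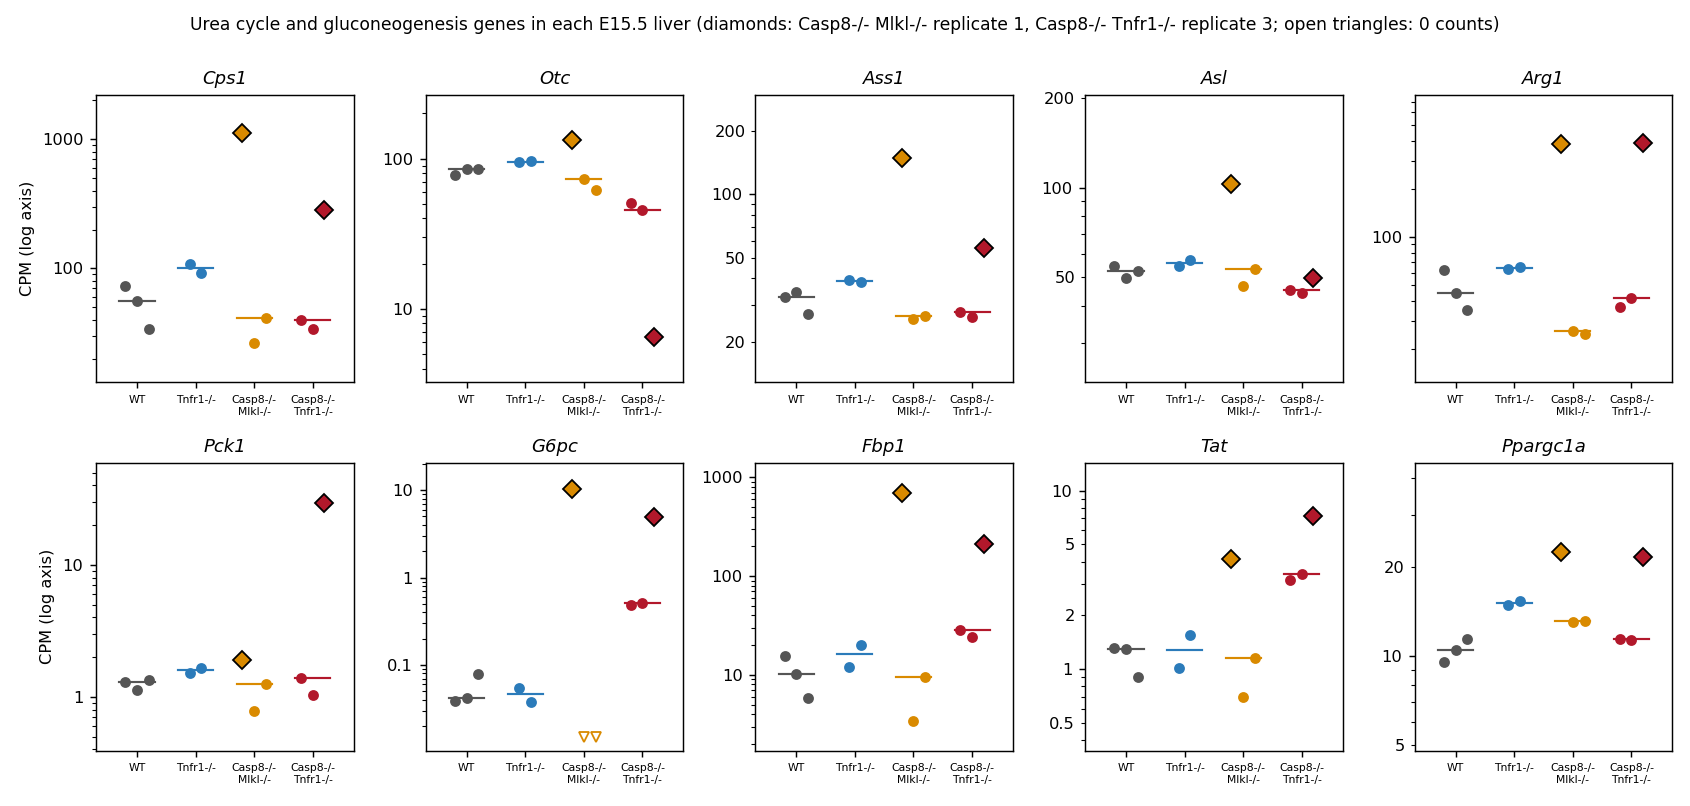
CPM of the 10 genes in each of the 11 livers, on log axes that differ between panels; circles are single livers, diamonds are Casp8-/- Mlkl-/- replicate 1 and Casp8-/- Tnfr1-/- replicate 3, lines are group medians (none where a liver had 0 counts), and open triangles mark 0 counts. Casp8-/- Mlkl-/- replicate 1 was above the other 10 livers in 7 of the 10 genes, and Otc in Casp8-/- Tnfr1-/- livers lay below all other livers.

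Cps1, carbamoyl phosphate synthetase and the first committed enzyme of the cycle, varied 42.3-fold over the 11 livers. It measured 73.1, 55.5 and 34.1 CPM in WT, 109 and 91.7 CPM in Tnfr1-/-, 1111, 26.3 and 41.5 CPM in Casp8-/- Mlkl-/-, and 40.0, 33.7 and 282 CPM in Casp8-/- Tnfr1-/- livers. Both livers that stood apart lay above all others, and the other 4 Casp8-deficient livers lay within or below the WT range. The log2 fold change of Casp8-/- Tnfr1-/- against WT was 1.13 ± 1.27 (SE) with all livers and -0.54 ± 0.24 without the 2 (edgeR adjusted p = 0.583 and 0.106, and 0.106 to 0.9995 over all alternatives). Its direction rested on replicate 3.

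Otc, ornithine transcarbamylase on the X chromosome, was lower in all 3 Casp8-/- Tnfr1-/- livers than in any other liver. It measured 78.0, 85.4 and 85.6 CPM in WT, 94.5 and 96.6 CPM in Tnfr1-/-, 134, 72.9 and 61.9 CPM in Casp8-/- Mlkl-/-, and 51.1, 45.8 and 6.50 CPM in Casp8-/- Tnfr1-/- livers. It was the single member of which this was true, as it was of 3.32% of all 17243 genes tested. Replicates 2 and 3 of Casp8-/- Mlkl-/- lay between the Casp8-/- Tnfr1-/- livers and the 5 livers with Casp8. Replicate 3 had 114 counts of Otc and 0.083 times the median of the other 9 livers, beside 1.71 times their median of the summed hepatocyte markers. Those 12 markers were split in that liver: 1 (Fgb) was above the 10 others and 2 (Apob and Rbp4) below them. The shares of all genes were 32.3% above and 38.8% below. Replicate 3 was also the liver with high Xist, and the part of hepatocytes or of Xist in its Otc level was not tested. The log2 fold change against WT was -1.26 ± 0.58 with all livers (edgeR adjusted p = 0.213) and -0.76 ± 0.08 without the 2 (adjusted p = 9.6e-06; 9.6e-06 to 0.778 over all alternatives). Against Casp8-/- Mlkl-/- it was -0.46 ± 0.09 without the 2 (adjusted p = 0.0022).

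Ass1 and Asl, which join citrulline to aspartate and release arginine, were the steadiest of the cycle. Ass1 measured 32.8, 34.5 and 27.1 CPM in WT, 39.4 and 38.2 CPM in Tnfr1-/-, 149, 25.7 and 26.6 CPM in Casp8-/- Mlkl-/-, and 27.6, 26.3 and 55.7 CPM in Casp8-/- Tnfr1-/- livers. Apart from the 2 livers, its range was 1.53-fold. Ass1 shares 38.6% of its 50-base stretches with Gm5424, a separate gene entry that held 1963 to 11199 counts where Ass1 held 686 to 3672, so the split of reads between these entries is uncertain. The sum of both entries was 99.9 to 159 CPM in the other 9 livers, 603 CPM in Casp8-/- Mlkl-/- replicate 1 and 202 CPM in Casp8-/- Tnfr1-/- replicate 3, the same order as for Ass1 alone. Asl measured 54.5, 49.8 and 52.5 CPM in WT, 54.3 and 57.1 CPM in Tnfr1-/-, 103, 46.8 and 53.1 CPM in Casp8-/- Mlkl-/-, and 45.1, 44.2 and 49.7 CPM in Casp8-/- Tnfr1-/- livers. Asl had the narrowest spread of the 10 genes, 1.29-fold over the 9 livers, and it did not stand out in Casp8-/- Tnfr1-/- replicate 3.

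Arg1, liver arginase, closed the cycle at 62.5, 44.5 and 35.2 CPM in WT, 63.5 and 65.1 CPM in Tnfr1-/-, 381, 25.8 and 24.8 CPM in Casp8-/- Mlkl-/-, and 36.5, 41.9 and 387 CPM in Casp8-/- Tnfr1-/- livers. The 2 livers that stood apart reached nearly the same level, 9.10 and 9.24 times the median of the other 9. Arg1 is also made by some macrophages, and the summed macrophage markers were at 984 CPM in Casp8-/- Mlkl-/- replicate 1 and at 339 CPM, within the range of the other 9, in Casp8-/- Tnfr1-/- replicate 3. The 8 markers were split in the latter liver. There 2 (Cd68 and Mrc1) were above the 10 others, at 32.3% of all genes, and 4 (Adgre1, Csf1r, Timd4 and C1qa) below them, at 38.8%. The part of macrophages in Arg1 was not tested. The replicates 2 and 3 of Casp8-/- Mlkl-/- were below the 5 livers with Casp8 in Arg1, Otc and Ass1, 3 of the 9 members with counts in every liver, against 9.15% of all genes.

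Pck1, the gene of the step that commits carbon to glucose, was low in every liver but 1. It measured 1.31, 1.13 and 1.34 CPM in WT, 1.53 and 1.67 CPM in Tnfr1-/-, 1.91, 0.785 and 1.26 CPM in Casp8-/- Mlkl-/-, and 1.40, 1.03 and 29.7 CPM in Casp8-/- Tnfr1-/- livers, the last on 521 counts against 27 to 56 in the others. The Casp8-/- Mlkl-/- liver that led in Cps1 and Fbp1, replicate 1, was at 1.46 times the median of the 9 in Pck1, whereas Casp8-/- Tnfr1-/- replicate 3 was at 22.7 times that median. Its log2 fold change against WT was 3.07 ± 1.10 with all livers (edgeR adjusted p = 0.129) and -0.03 ± 0.30 without the 2 (adjusted p = 0.954; 0.0468 to 0.963 over all alternatives, the lowest without replicate 2). Fat cells also make Pck1: of the 6 adipose markers, Fabp4 was at 280 CPM in replicate 3 (at most 29.9 elsewhere), Cidea was at 1.88 CPM (at most 0.203 elsewhere), and Adipoq, Plin1, Ucp1 and Lep had 0 counts there. Proximal tubule of kidney makes Pck1 as well, and the summed kidney markers were at 3.99 CPM in replicate 3 against 4.19 to 6.77 in the other 9. Only 2 of the 8 kidney markers passed the filter on low counts. The parts of fat and of kidney cells in the level of Pck1 were not tested.

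G6pc, which releases free glucose from the cell, was close to 0 in 7 of the 11 livers. Its counts were 1, 1 and 2 in WT, 2 and 1 in Tnfr1-/-, 253, 0 and 0 in Casp8-/- Mlkl-/-, and 16, 15 and 86 in Casp8-/- Tnfr1-/- livers. A count of 0 allows up to 3 counts, and these limits cover counting error only. In CPM it was at most 0.0789 in the WT and Tnfr1-/- livers, 0.488, 0.516 and 4.90 in Casp8-/- Tnfr1-/- livers and 10.3 in Casp8-/- Mlkl-/- replicate 1. Casp8-/- Tnfr1-/- replicates 1 and 2 together had 9.43 times the WT level (95% counting interval 3.33 to 36.8, from 31 and 4 counts). Against Casp8-/- Mlkl-/- replicates 2 and 3, which had 0 counts, the exact 95% counting interval put them at least 7.75-fold higher (10.1-fold at a floor of 3 counts over that pair). The same limit for Casp8-/- Mlkl-/- replicate 1 against its own replicates 2 and 3 was 167-fold (207-fold at the floor). G6pc passed the filter on low counts through the livers in which it was high. Its calls are therefore left out of the counts of members given without the 2 livers, except where G6pc is named among those counted.

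Fbp1, the step before G6pc, spanned 204-fold, the widest range of the 9 members with counts in every liver. It measured 15.6, 10.2 and 5.80 CPM in WT, 12.0 and 20.2 CPM in Tnfr1-/-, 699, 3.43 and 9.55 CPM in Casp8-/- Mlkl-/-, and 28.7, 24.3 and 210 CPM in Casp8-/- Tnfr1-/- livers. All 3 Casp8-/- Tnfr1-/- livers were above the 7 remaining livers when Casp8-/- Mlkl-/- replicate 1 was set aside, as was true of Tat (2 of the 9 members with counts in every liver, against 13.3% of all genes). The log2 fold change against WT was 3.06 ± 1.65 with all livers (edgeR adjusted p = 0.272) and 1.35 ± 0.35 without the 2 (adjusted p = 0.0099; 0.0099 to 0.679 over all alternatives). Against Casp8-/- Mlkl-/- it was -1.44 ± 1.54 with all livers and 2.08 ± 0.42 without the 2 (adjusted p = 0.661 and 0.0028). Leaving out Casp8-/- Mlkl-/- replicate 1 alone gave a log2 fold change of 3.76, so that liver set the direction.

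Tat, tyrosine aminotransferase, gave the same direction in every setting of the comparison with WT. It measured 1.31, 1.30 and 0.907 CPM in WT, 1.01 and 1.56 CPM in Tnfr1-/-, 4.14, 0.697 and 1.15 CPM in Casp8-/- Mlkl-/-, and 3.17, 3.41 and 7.18 CPM in Casp8-/- Tnfr1-/- livers, on 23 to 126 counts. The log2 fold change against WT was 1.96 ± 0.63 with all livers (edgeR adjusted p = 0.0978) and 1.503 ± 0.28 without the 2 (adjusted p = 0.000976; 0.000976 to 0.285 over all alternatives). Ppargc1a varied little by comparison, at 9.56, 10.5 and 11.4 CPM in WT, 14.9 and 15.3 CPM in Tnfr1-/-, 22.6, 13.1 and 13.2 CPM in Casp8-/- Mlkl-/-, and 11.4, 11.4 and 21.7 CPM in Casp8-/- Tnfr1-/- livers. The 2 livers that stood apart reached about the same level of Ppargc1a, and both Tnfr1-/- livers lay above the 3 WT livers.

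With all 11 livers, no member was called in any of the comparisons between genotypes by edgeR's quasi-likelihood test at an adjusted p under 0.05. The share of all genes called was 5.80% for Casp8-/- Tnfr1-/- against WT, 2.17% against Tnfr1-/- and 1.65% against Casp8-/- Mlkl-/-, 0.00580% for Casp8-/- Mlkl-/- against WT, 0.00% for Tnfr1-/- against WT, and 3.60% over the 4 genotypes. At an unadjusted p under 0.05 there were 2 members in each of these comparisons except Tnfr1-/- against WT, where there were 0. The share of all genes at that p was 24.6%, 16.3%, 15.3%, 5.63%, 1.08% and 15.3% in the same order, so 2 of 10 was near the background or below it except in Casp8-/- Mlkl-/- against WT. DESeq2 called 1 member (Tat, against WT) where 13.7% of all genes were called and gave no adjusted p for Cps1, Arg1, Pck1, G6pc and Fbp1 there, and limma-voom called 0 (4.68% of all genes against WT). The median log2 fold change of the 10 members against WT was 1.42 in Casp8-/- Tnfr1-/- (all genes -0.0015) and 0.92 in Casp8-/- Mlkl-/- livers (all genes 0.03). Without the 2 livers both medians were below 0, at -0.12 and -0.34, with 4 and 1 of the 10 members above 0. Standard errors were 1.10 to 2.31 for Cps1, Arg1, Pck1, Fbp1 and G6pc against WT. The fit shares its estimate of spread over all 11 livers, so these errors hold the spread within every genotype, not within the compared groups alone. With such errors a difference of several-fold in these genes could not be resolved.

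**Figure D2:**
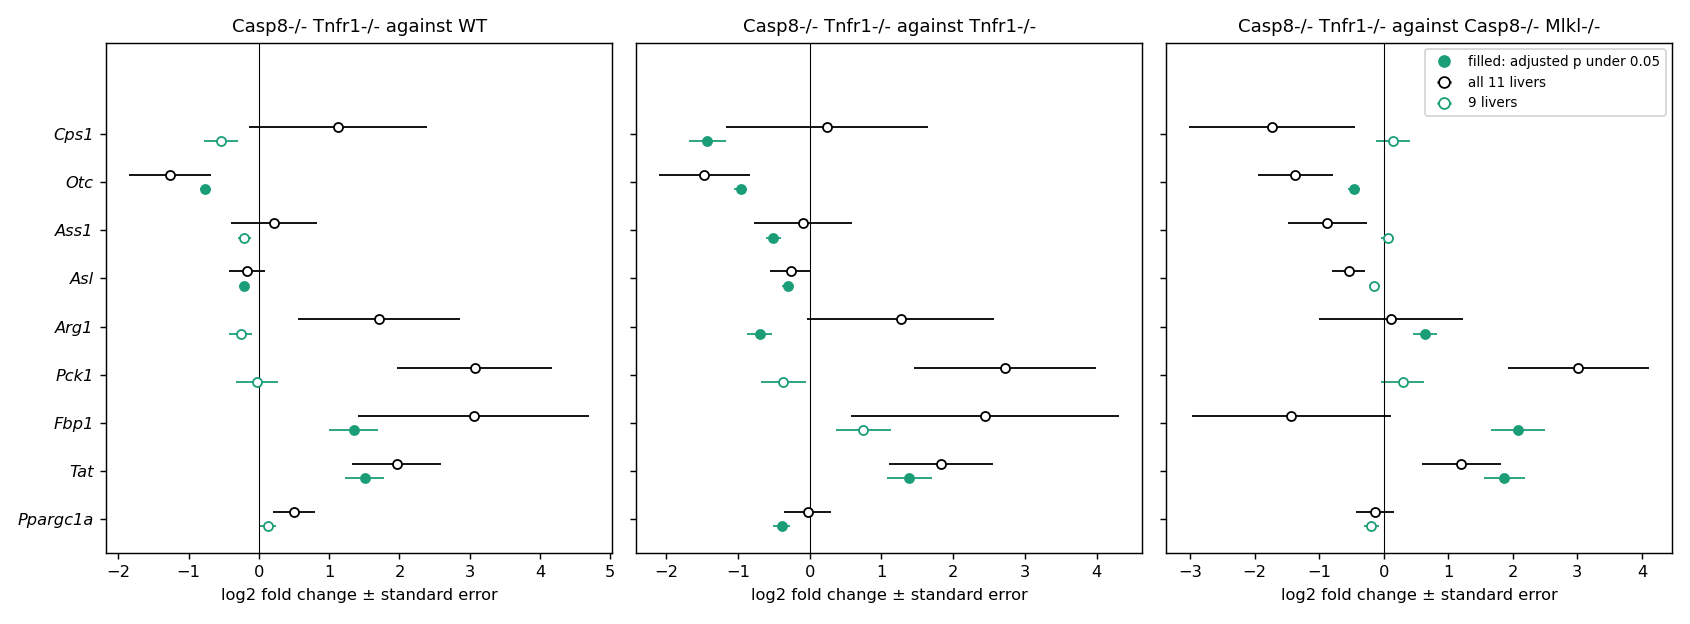
Log2 fold change of Casp8-/- Tnfr1-/- livers against WT, Tnfr1-/- and Casp8-/- Mlkl-/- livers for 9 of the genes (G6pc is left out because all but 1 of the livers compared with had 0 to 2 counts), with all 11 livers (black) and with 9 livers (green); bars are standard errors and filled points have an edgeR adjusted p under 0.05. In the comparison with WT, Cps1, Ass1, Arg1 and Pck1 lay above 0 with all livers and below 0 with 9 livers, whereas Otc lay below 0 and Fbp1 and Tat above 0 in both.

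Without the 2 livers, Fbp1 and Tat were higher and Otc and Asl lower in Casp8-/- Tnfr1-/- than in WT livers, 4 calls among the 9 members other than G6pc (Asl at -0.21 ± 0.08, edgeR adjusted p = 0.0452), at a background of 17.8% of all genes called higher and 13.5% called lower. Against Tnfr1-/-, 2 livers against 2, the called members were 7 of these 9, with Tat higher (background 13.9% of all genes) and Cps1, Otc, Ass1, Asl, Arg1 and Ppargc1a lower (background 9.30%). All 5 urea cycle genes were lower than in Tnfr1-/- livers in CPM, by a log2 fold change of -1.43 ± 0.26 for Cps1, -0.96 ± 0.09 for Otc, -0.70 ± 0.18 for Arg1, -0.51 ± 0.11 for Ass1 and -0.30 ± 0.08 for Asl. Their edgeR adjusted p ran from 2.8e-06 (Otc) to 0.0149 (Asl). The summed hepatocyte markers moved with them, at 63306 and 62002 CPM in the Casp8-/- Tnfr1-/- livers against 84724 and 77373 CPM in Tnfr1-/- livers. Per 1000 reads of those markers Asl overlapped (0.713 and 0.712 against 0.641 and 0.737), Ass1 was at 0.436 and 0.424 against 0.465 and 0.494, and Cps1 was at 0.632 and 0.544 against 1.29 and 1.18. On that scale Asl also lay within the WT range of 0.689 to 0.811, whereas Otc, at 0.807 and 0.739, lay below the WT range of 0.986 to 1.32. Against Casp8-/- Mlkl-/- the called members were 4, with Fbp1, Tat and Arg1 (0.64 ± 0.18) higher (background 12.0%) and Otc lower (background 6.10%). Pck1 was not called in any of these comparisons. The 3 comparisons share the same Casp8-/- Tnfr1-/- livers.

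In Casp8-/- Mlkl-/- livers without replicate 1, Arg1 was lower than in WT by a log2 fold change of -0.90 ± 0.17 (edgeR adjusted p = 0.0090) and Otc by -0.30 ± 0.08 (adjusted p = 0.0461), 2 members where 3.18% of all genes were lower. No member was higher, where 3.23% of all genes were, Ppargc1a having the smallest p-value of the rest (0.33 ± 0.11, adjusted p = 0.0955). With replicate 1 included, the log2 fold changes lay above 0 for all 10, from 0.05 for Pck1 to 4.49 for Fbp1 and a higher fitted value for G6pc, and 0 were called. Between Tnfr1-/- and WT livers Ppargc1a was the 1 member called without the 2 livers, at 0.52 ± 0.11 (adjusted p = 0.0495), where 0.348% of all genes were higher and 0.330% lower, and Cps1 had the largest difference, 0.89 ± 0.23 (adjusted p = 0.0760). A test over the 4 genotypes without the 2 livers called 7 of the 9 members other than G6pc, Asl and Pck1 being the others, at a background of 30.8%.

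The 2 livers that stood apart carried the members in different combinations. Replicate 1 of Casp8-/- Mlkl-/- was above the 10 other livers in 7 members (Cps1, Otc, Ass1, Asl, G6pc, Fbp1 and Ppargc1a), at a background of 16.5% of all genes, and above its replicates 2 and 3 in all 10, at a background of 42.9%. Casp8-/- Tnfr1-/- replicate 3 was above the 10 others in 3 (Arg1, Pck1 and Tat), at 32.3% of all genes, and below them in Otc, at 38.8%. Fold of the median of the other 9 livers, Fbp1 was at 58.4 and Cps1 at 26.8 in Casp8-/- Mlkl-/- replicate 1, and Pck1 at 22.7 and Fbp1 at 17.6 in Casp8-/- Tnfr1-/- replicate 3. Across all 14754 genes compared in this way, 9.29% were more than doubled in the first and 19.5% in the second.

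Set against the hepatocyte markers of the same liver, the members split. Per read of the 12 markers, Casp8-/- Mlkl-/- replicate 1 held 19.1 times the median of the other 9 livers for Fbp1, 7.16 times for Cps1, 2.39 times for Arg1 and 1.39 times for Ass1. It held 0.988 times for Tat, 0.578 times for Asl, 0.510 times for Ppargc1a, 0.488 times for Otc and 0.429 times for Pck1, so for these 5 the gain in CPM was no larger than the gain in hepatocyte markers. In Casp8-/- Tnfr1-/- replicate 3 the same measure gave 14.2 for Pck1, 12.3 for Fbp1, 5.19 for Arg1, 3.87 for Cps1, 3.65 for Tat, 1.11 for Ass1, 1.05 for Ppargc1a, 0.595 for Asl and 0.0505 for Otc. Otc was the lowest of the 10 in that liver on either scale. The marker sum there was mostly Alb (47186 CPM) and Afp (35673 CPM), while Apob and Rbp4 were lower than in any other liver. The scale thus depends on which markers are summed.

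**Figure D3:**
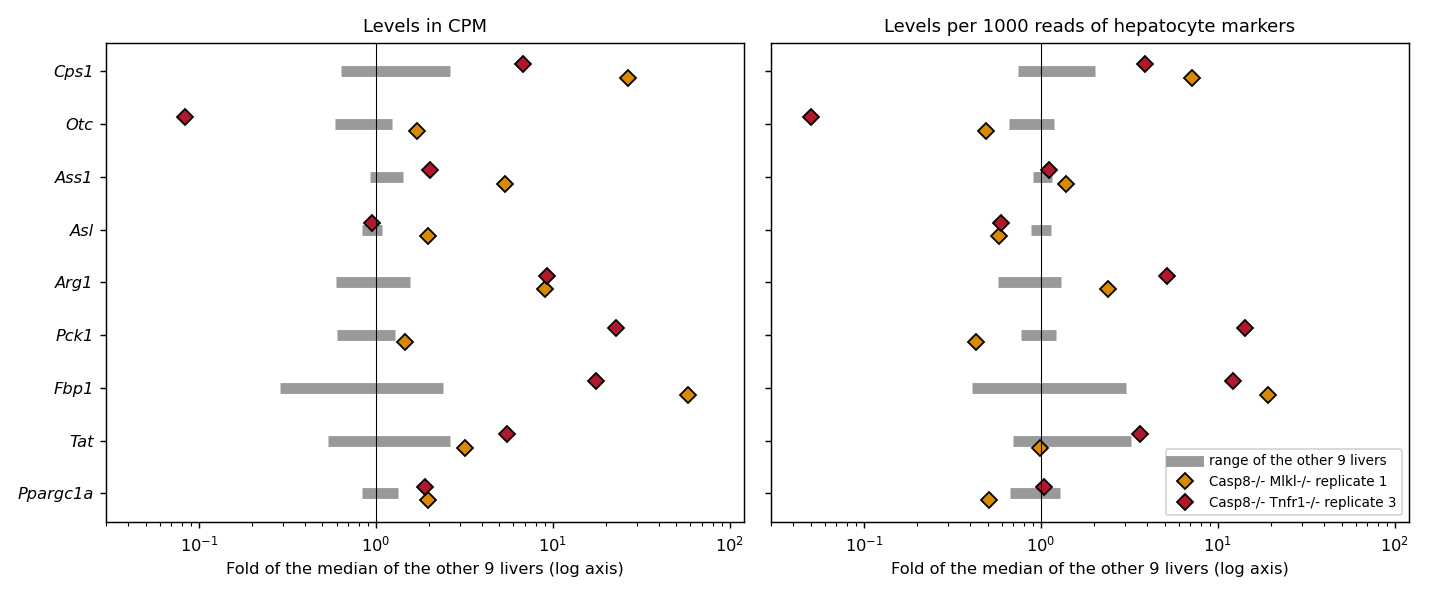
Level of 9 genes in Casp8-/- Mlkl-/- replicate 1 (orange) and Casp8-/- Tnfr1-/- replicate 3 (red) as a fold of the median of the other 9 livers, in CPM (left) and per 1000 reads of 12 hepatocyte markers (right), on log axes; grey bars are the range of the other 9 livers, and G6pc is left out because its median rested on 1 or 2 counts. Fbp1 was at 58.4 and 17.6 times the median in CPM and at 19.1 and 12.3 times per hepatocyte marker, and Otc in the red liver lay below the grey bar on both scales.

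Of 8 isozymes and relatives of the members, 6 passed the filter on low counts. Arg2, the mitochondrial arginase, passed it through the livers in which it was high, so its call against WT is not counted. Its levels are given below with the genes that use arginine. Pck2, the mitochondrial partner of Pck1, was at 89.5 to 131 CPM in all livers (log2 fold change -0.02 ± 0.17), and G6pc3, the ubiquitous form of G6pc, at 14.2 to 23.2 CPM (-0.05 ± 0.19). Cad, which makes carbamoyl phosphate for pyrimidines, was at 113 to 202 CPM in 10 livers and at 37.0 CPM in Casp8-/- Tnfr1-/- replicate 3. Ppargc1b (0.11 ± 0.30) and Pprc1 (-0.23 ± 0.26), relatives of Ppargc1a, were not called. Ppargc1b was highest in the same 2 livers as Ppargc1a, at 8.27 and 6.78 CPM against 3.10 to 5.61 CPM in the other 9. Fbp2, the muscle form of Fbp1, was at most 0.163 CPM in 10 livers and at 1.25 CPM in Casp8-/- Tnfr1-/- replicate 3, and G6pc2 was at most 0.0688 CPM.

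The 14 neighbours of the urea cycle were transporters, aminotransferases and enzymes that use arginine or ornithine. Apart from Nos2 and Arg2, Odc1 alone was called in Casp8-/- Tnfr1-/- livers against WT, where 5.80% of all genes were called. Nos2, the inducible nitric oxide synthase, was at 9.70, 5.92 and 586 CPM in Casp8-/- Tnfr1-/- livers and at most 0.342 CPM in the 8 others. Arg2 was at 1.37, 0.895 and 30.9 CPM against 0.0274 to 1.66 CPM in the others, of which Casp8-/- Mlkl-/- replicate 1 was the highest. Nos2 and Arg2 passed the filter on low counts through the livers in which they were high. Their calls are therefore not counted, and no fold change or p-value is given for them. Odc1, which turns ornithine into polyamines, was at 34.2, 35.3 and 29.9 CPM in Casp8-/- Tnfr1-/- and at 67.3 to 69.2 CPM in WT livers (-1.04 ± 0.22, edgeR adjusted p = 0.0235), while Casp8-/- Mlkl-/- replicate 1 had 27.9 CPM. Neutrophils can make Nos2, and 3 of their 8 markers were called higher in Casp8-/- Tnfr1-/- livers than in WT, where 5.10% of all genes were. Without the 2 livers 8 of 8 were called higher, where 17.8% of all genes were. The part of neutrophils in Nos2 was not tested.

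**Figure D4:**
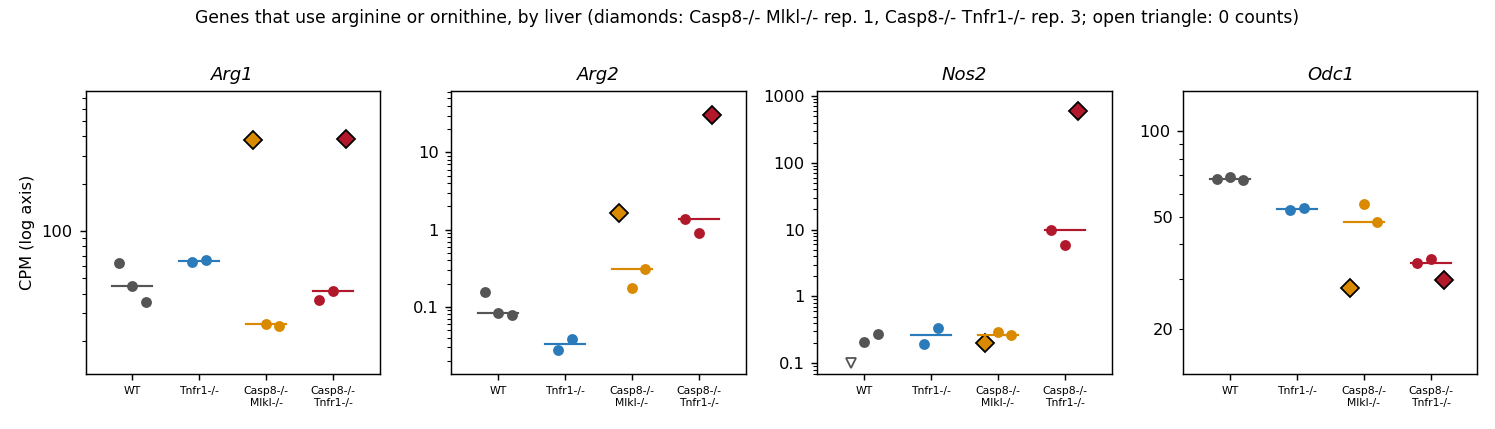
CPM of Arg1, Arg2, Nos2 and Odc1 in each liver, on log axes that differ between panels; circles are single livers, diamonds are Casp8-/- Mlkl-/- replicate 1 and Casp8-/- Tnfr1-/- replicate 3, lines are group medians, and the open triangle marks 0 counts. Nos2 was between 5.92 and 586 CPM in the 3 Casp8-/- Tnfr1-/- livers and at most 0.342 CPM in all others, while Arg1 was high in both diamonds.

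The wider pathways showed few calls with all 11 livers, where 5.80% of all genes were called against WT. Of 18 gluconeogenesis and glycogen genes tested, 0 were called against WT by edgeR and 2 were at an unadjusted p under 0.05. These were Pdk4, which spares pyruvate for glucose synthesis (2.78 ± 1.15, adjusted p = 0.174), and Gpt, alanine aminotransferase (-0.62 ± 0.27, adjusted p = 0.187). Pdk4 was at 46.3 CPM in Casp8-/- Mlkl-/- replicate 1, 87.6 CPM in Casp8-/- Tnfr1-/- replicate 3 and 4.16 to 7.57 CPM in the other 9 livers, a pattern of both livers high as in Fbp1. Without the 2 livers 2 of the 18 were higher than in WT and 6 lower, where 17.8% of all genes were higher and 13.5% lower, and Pdk4 was among the higher (0.57 ± 0.17, edgeR adjusted p = 0.0206). Of 19 genes of amino acid breakdown tested, Aass, of lysine breakdown, was called (-0.84 ± 0.22, edgeR adjusted p = 0.04995) and Bhmt, which returns homocysteine to methionine, was not (adjusted p = 0.0610). Without the 2 livers 13 of these 19, Aass and Bhmt included, were lower and 2 higher than in WT, at the same background of 13.5% and 17.8%. Tat is not counted in this list. The highest liver was Casp8-/- Mlkl-/- replicate 1 for 17 of the 19, as it was for 16.5% of all genes. The lowest was Casp8-/- Tnfr1-/- replicate 3 for 12, as it was for 38.8% of all genes.

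Of 23 regulators of hepatic genes, 0 were called by edgeR with all livers (4 at an unadjusted p under 0.05), and 10 were higher and 0 lower than in WT without the 2, where 17.8% and 13.5% of all genes were. With all livers the smallest p-values belonged to Cebpb, a transcription factor of the acute phase (2.97 ± 0.78, edgeR adjusted p = 0.0544), and Nr0b2 (1.67 ± 0.54, adjusted p = 0.0980). Without the 2 livers Cebpb was called higher, at 1.19 ± 0.21 (edgeR adjusted p = 0.000663). Nr0b2 was also among the 10, on 4 to 6 counts in WT and 10 to 19 in all Casp8-/- Tnfr1-/- livers. It passed the filter on low counts through livers in which it was high, so its call is not used as a result. Of 12 genes that respond to glucocorticoid or cyclic AMP, Nr4a1 was called (3.66 ± 0.83, edgeR adjusted p = 0.0316), where 5.80% of all genes were. Igfbp1, at 342, 402 and 7238 CPM against 66.3 to 90.8 CPM in WT, was not (5.02 ± 1.35, adjusted p = 0.0596). Without the 2 livers both were called, at 1.78 ± 0.18 and 2.20 ± 0.33. They were among 6 of the 12 that were higher, and 1 was lower, where 17.8% of all genes were higher and 13.5% lower. Casp8-/- Tnfr1-/- replicate 3, the liver high in Pck1 and Tat, was the highest liver for 11 of these 12 (32.3% of all genes). Casp8-/- Mlkl-/- replicate 1, high in Fbp1 and Cps1, was the highest for 1 (16.5% of all genes). Of 11 genes that rise in hepatocytes around birth, Car3 (-3.12 ± 0.17, edgeR adjusted p = 3.8e-05) and Ces1d (-3.29 ± 0.67, adjusted p = 0.0205) were lower in Casp8-/- Tnfr1-/- livers than in WT. None was higher, where 0.702% of all genes were lower and 5.10% higher. Without the 2 livers 5 were lower and 2 higher, where 13.5% of all genes were lower and 17.8% higher. For 10 of the 11 the highest liver was Casp8-/- Mlkl-/- replicate 1, at a background of 16.5% of all genes.

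The genes whose pattern lay closest to Cps1 over the 11 livers, by Euclidean distance between centred log2 CPM among 14331 genes, were Aqp8 (distance 1.07), Tff3 (1.21) and Hsd17b13 (1.30), where the median gene was at 5.21. Aqp8, a water channel, was at 455 CPM in Casp8-/- Mlkl-/- replicate 1, 151 CPM in Casp8-/- Tnfr1-/- replicate 3 and 7.41 to 29.5 CPM in the others. For Pck1 they were Pdlim3 (0.893), Ptgis (0.966) and Tppp3 (0.983), against a median of 4.52. All 3 shared with Pck1 a single high liver: Pdlim3, which encodes a muscle protein, was at 18.6 CPM in Casp8-/- Tnfr1-/- replicate 3 and at 0.671 to 1.42 CPM in the 10 others. In that liver all 8 striated muscle markers were above the 10 others, as were 32.3% of all genes. The part of muscle in the level of Pck1 was not tested.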

How the data were processed

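Total RNA of E15.5 fetal livers was sequenced as single-end reads of 50 bases. Per the labels and the study's methods, the authors aligned reads to GRCm38 (mm10) with GSNAP. The counts, as the authors deposited them, are raw, with 1 value per gene, the uniquely mapped reads that fell in its exons; the deposited RPKM values divide them by a deposited width in bases and a read total per liver, and were used only to check the counts. Whether counting used strand is not given in the sources used here, and the labels and the methods name different library kits; no exon of a member overlaps another gene. Genes were named from GENCODE M 21, which holds 52489 of 52636.

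filterByExpr (minimum count 10) left 17243 genes for testing, all 10 members included. Genotypes were compared in 1 fit over 4 genotypes with edgeR 4.0.16 (R 4.3.3; TMM, quasi-likelihood test, Benjamini-Hochberg over all genes tested, threshold 0.05), which was tested on simulated data. DESeq2 1.42.0, limma-voom (limma 3.58.1), other filters and scalings, and fits without livers were alternatives. Counting intervals are exact at 95%. No pair of livers was the same library (chi-square per degree of freedom at least 6.47). RPKM levels in the report were recomputed from the counts, the width and the scaled library sizes.

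The members and the gene lists were chosen with earlier results of these data known. The genes named beside the members are, in each list, those called in Casp8-/- Tnfr1-/- against WT, at most 4, or the 2 with the smallest p-values where fewer than 2 were called; all isozymes; and the 3 genes nearest to Cps1 and to Pck1. Marker lists of blood, endothelial, stromal, biliary, muscle, kidney, intestine and adipose cells were summed per liver.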

Additional observations from a re-analysis of the deposited data

How the results depend on the processing

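Depth limited G6pc (0 to 253 counts), Tat (23 to 126) and Pck1 (27 to 521), and with 2 or 3 livers a genotype the 2 livers that stood apart set most values. Leaving out both, Casp8-/- Mlkl-/- replicate 1 and Casp8-/- Tnfr1-/- replicate 3, moved the number of members called from 0 to 5 (Casp8-/- Tnfr1-/- against WT), 8 (against Tnfr1-/-), 5 (against Casp8-/- Mlkl-/-), 2 (Casp8-/- Mlkl-/- against WT), 1 (Tnfr1-/- against WT) and 8 (4 genotypes), with G6pc counted among the first 3 and the last. The share of all genes called without both was 31.3%, 23.2%, 18.1%, 6.40%, 0.678% and 30.8% in the same order. Leaving out 1 liver at a time gave 0 to 2, 0 to 0, 0 to 1, 0 to 0, 0 to 0 and 0 to 2 calls in the same order, with G6pc among the members counted. Without Casp8-/- Mlkl-/- replicate 1 alone, Tat was called by edgeR against WT (adjusted p = 0.0205) and against Casp8-/- Mlkl-/- (0.0386). G6pc was the other member counted there against WT. Since G6pc passed the filter on low counts through the livers in which it was high, none of its calls is used as a result. Without Casp8-/- Tnfr1-/- replicate 2, Pck1 was called against WT (edgeR adjusted p = 0.0468). DESeq2 called 1 member against WT (13.7% of all genes). A fit of the 2 genotypes compared called 1 between Tnfr1-/- and WT, with no share of all genes computed. Scaling to the summed hepatocyte markers called 1 against Casp8-/- Mlkl-/- (2.67% of all genes) and 2 over the 4 genotypes (3.61%). That scaling moved the median of all genes by -0.223 to 0.163 on the log2 scale, the other scalings by at most 0.0147. Replicate numbers did not pair the livers (15 same-numbered pairs, correlation of deviations -0.297 to 0.275), and with the replicate block 0 members were called in every comparison, as without it.

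Signs turned in the log2 fold changes as follows, the cause of each beyond the livers left out being untested. With both livers left out, Casp8-/- Tnfr1-/- against WT gave Cps1 -0.54, Ass1 -0.21, Arg1 -0.26 and Pck1 -0.029; against Tnfr1-/- Cps1 -1.43, Arg1 -0.70 and Pck1 -0.37; against Casp8-/- Mlkl-/- Cps1 0.15, Ass1 0.057, Fbp1 2.08 and a fitted G6pc of 6.88, which is no bound. Casp8-/- Mlkl-/- against WT then gave Cps1 -0.68, Otc -0.30, Ass1 -0.26, Asl -0.066, Arg1 -0.90, Pck1 -0.32, Fbp1 -0.73, Tat -0.37 and a fitted G6pc of -3.73. Scaled to hepatocyte markers, Cps1 was -0.033 (Casp8-/- Tnfr1-/- against Tnfr1-/-), G6pc 0.42 and Ppargc1a 0.086 (against Casp8-/- Mlkl-/-), Otc -0.36, Asl -0.13, Pck1 -0.43 and Tat -0.092 (Casp8-/- Mlkl-/- against WT), and Otc -0.0028, Asl -0.11 and Tat -0.046 (Tnfr1-/- against WT). With limma-voom, Cps1 was -0.49 (against Tnfr1-/-), G6pc 2.93 and Fbp1 0.93 (against Casp8-/- Mlkl-/-) and Pck1 -0.076 (Casp8-/- Mlkl-/- against WT). With the replicate block, G6pc was 1.04 (against Casp8-/- Mlkl-/-), and Otc -0.036 and -0.20 (Casp8-/- Mlkl-/- and Tnfr1-/- against WT).

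Leaving out 1 liver at a time, Casp8-/- Tnfr1-/- against WT ranged from -0.55 to 1.58 for Cps1, -0.21 to 0.41 for Ass1, -0.27 to 2.18 for Arg1 and -0.039 to 3.62 for Pck1, the lowest each time without replicate 3. Against Tnfr1-/- the ranges were -1.44 to 0.68 (Cps1), -0.52 to 0.11 (Ass1), -0.71 to 1.74 (Arg1), -0.39 to 3.27 (Pck1) and -0.40 to 0.14 (Ppargc1a). Against Casp8-/- Mlkl-/- they were -3.41 to 1.81 (Cps1), -1.31 to 0.48 (Ass1), -1.87 to 2.62 (Arg1), -0.092 to 3.57 (Pck1), -2.74 to 8.74 (G6pc), -3.16 to 3.76 (Fbp1) and -0.51 to 0.17 (Ppargc1a). For Casp8-/- Mlkl-/- against WT they were -0.68 to 3.40 (Cps1), -0.30 to 0.31 (Otc), -0.26 to 1.47 (Ass1), -0.065 to 0.57 (Asl), -0.90 to 2.09 (Arg1), -0.31 to 0.32 (Pck1), -3.68 to 6.46 (G6pc), -0.70 to 5.06 (Fbp1) and -0.35 to 1.16 (Tat), and for Tnfr1-/- against WT -0.44 to 0.22 (G6pc) and -0.21 to 0.41 (Tat). In Casp8-/- Tnfr1-/- against WT, the signs of Otc, Asl, G6pc, Fbp1, Tat and Ppargc1a were the same under every alternative run.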
